A study of Mus musculus with 29 samples.

Results

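NMM is a line of mouse melanoma cells that carries mutant NRAS. The comparison described here asked what a pulse of interferon gamma (IFNγ) leaves behind in these cells once they are under transforming growth factor beta (TGFβ). It set 4 libraries given IFNγ (100 ng/ml) and then TGFβ (10 ng/ml) against 4 libraries given plain medium and then TGFβ (10 ng/ml), 8 of the 29 mRNA libraries of the study, chosen by the stimuli named in their labels. The first stimulation lasted 2, 6, 12 or 24 h with 1 library per group and duration, the cells were then washed with PBS, and the second stimulation lasted 24 h in every library. IFNγ then medium and medium then medium, with 4 libraries each at the same durations, serve as a second pair. Medium then IFNγ was used to class genes by whether IFNγ itself raises or lowers them in these cells, and like all 29 libraries it enters the model's estimate of spread. All cells carry the NRAS mutation and come from 1 line. The durations stand in for replicates, no label says that the libraries came from separate cultures. The p-values hence rest on how far these samples spread, part of which may be technical.

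IFNγ is a cytokine of T and NK cells. It binds a receptor coupled to the kinases JAK1 and JAK2, and through transcription factors such as IRF1 raises guanylate-binding and immunity-related GTPases, chemokines and the machinery that loads peptides onto MHC class I molecules. MHC class I molecules, made of a heavy chain and beta-2 microglobulin, show peptides from inside the cell to CD8 T cells. The peptides are cut by the immunoproteasome and pumped into the endoplasmic reticulum by the TAP transporter. TGFβ signals through SMAD proteins, raises matrix genes and its own inhibitor Smad7, and is known to dampen immune recognition of tumours.

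The promoter sequences of 4 genes on which the results turn are given first, since interferon acts through short promoter elements. Each is the 250 bases before the transcription start in RefSeq on GRCm38.p6, written 5′ to 3′ on the strand of the gene. Capitals mark a match to the gamma-activated element TTCNNNGAA, which reads the same on both strands, or to the IRF element, which is GAAA, any 2 bases and GAAA again, searched on both strands. The 2 patterns share no match in these windows. B2m encodes beta-2 microglobulin (chr2:122147437-122147686, plus strand), H2-K1 a class I heavy chain (chr17:34000348-34000597, minus strand, the first of its listed starts), Psmb8 an immunoproteasome subunit (chr17:34197945-34198194, plus strand), and Notch1 a receptor for ligands on neighbouring cells (chr2:26503823-26504072, minus strand).
B2m: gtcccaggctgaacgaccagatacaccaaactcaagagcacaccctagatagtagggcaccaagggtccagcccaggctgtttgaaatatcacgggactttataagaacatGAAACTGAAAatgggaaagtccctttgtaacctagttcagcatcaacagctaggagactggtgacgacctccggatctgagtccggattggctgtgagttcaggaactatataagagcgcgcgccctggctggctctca
H2-K1: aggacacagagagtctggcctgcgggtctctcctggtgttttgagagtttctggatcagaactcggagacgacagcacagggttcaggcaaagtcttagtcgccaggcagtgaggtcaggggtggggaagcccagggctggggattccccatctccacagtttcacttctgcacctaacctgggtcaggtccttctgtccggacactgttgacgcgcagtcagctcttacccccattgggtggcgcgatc
Psmb8: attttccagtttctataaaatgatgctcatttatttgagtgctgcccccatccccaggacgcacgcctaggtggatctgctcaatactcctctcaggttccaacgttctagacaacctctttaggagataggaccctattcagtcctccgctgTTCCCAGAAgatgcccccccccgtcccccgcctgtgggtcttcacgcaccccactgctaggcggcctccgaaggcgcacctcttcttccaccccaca
Notch1: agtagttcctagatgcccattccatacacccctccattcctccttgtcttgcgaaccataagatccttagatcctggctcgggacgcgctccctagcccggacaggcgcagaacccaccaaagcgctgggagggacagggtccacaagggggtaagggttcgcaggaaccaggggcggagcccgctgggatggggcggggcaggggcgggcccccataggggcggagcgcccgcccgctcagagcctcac
B2m held 1 IRF element, GAAACTGAAA, which began 139 bases before the start. Psmb8 held 1 gamma-activated element, TTCCCAGAA, which began 97 bases before the start. The windows of H2-K1 and Notch1 held neither set of letters. Only exact matches were counted, and elements that differ from these patterns were not searched for. Among 32851 RefSeq promoters of the same length, 7.02% held the gamma-activated pattern and 2.98% the IRF pattern. Counted per gene over all listed starts, 2197 of 27025 genes held the gamma-activated pattern and 936 the IRF pattern. MHC class I genes here means a list of 22 genes of class I presentation. It also covers genes for cutting, transport and loading of peptides, such as Psmb8 and Tap1. Of the 20 that matched the RefSeq table, 2 held the gamma-activated pattern (H2-M3 and Psmb8) and 3 the IRF pattern (H2-T22, H2-T23 and B2m). Of 10 matched GTPase genes, 6 held the gamma-activated pattern and 9 the IRF pattern. A match is a description of the letters and not of a bound site. The windows of Psmb8 and Notch1 lie inside the counted gene (chr17:34197721-34201454 and chr2:26457903-26516663). Their RefSeq start thus differs from the start of the gene as counted.

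The 8 libraries held 17420137 to 21590675 counts. Levels are CPM, that is counts scaled to a common total of reads, relative to library sizes scaled with TMM factors, and differences are on the log2 scale. The share of mitochondrially encoded counts was 0.977 to 1.25% in the IFNγ then TGFβ libraries and 0.717 to 1.21% in the medium then TGFβ libraries. Of 8 melanocyte markers, Mitf and Gpnmb passed 1 CPM, Sox10 reached at most 0.135 CPM and Pmel 0.270 CPM, and Tyr, Tyrp1, Dct and Mlana were not listed, so that the pigment markers of the labelled cell type were at or near 0. Mitf lay at 8.61 to 11.8 CPM with IFNγ first and at 8.40 to 12.7 CPM with medium first, and Gpnmb at 78.1 to 146 CPM with IFNγ first and 49.0 to 83.2 CPM with medium first. Leukocyte markers were near 0 apart from Cd14 and Cd68, with Ptprc at most at 0.0544 CPM. The 6 h medium then medium library stood apart from the other 3 of its group by an SD of 0.596 over log2 levels, against 0.32 to 0.361 for those 3. It takes no part in the difference between the IFNγ then TGFβ and medium then TGFβ libraries, but it enters the model's estimate of spread and the comparison with medium as second stimulus.

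MHC class I genes were higher with IFNγ first at the 2 longer first stimulations, where 18 of 22 passed the test and 2.25% of all genes did in this direction. Without the 24 h IFNγ then TGFβ library 11 of 22 passed. In bulk RNA, fewer cells with a transcript and less of it per cell cannot be told apart. B2m stood at 1298, 1642, 1194 and 1394 CPM after 2, 6, 12 and 24 h of IFNγ then TGFβ, against 1298, 1299, 429.9 and 535 CPM after the same times of medium then TGFβ. The libraries of IFNγ then TGFβ at 12 and 24 h were near the medium then TGFβ libraries of 2 and 6 h, and those of medium then TGFβ at 12 and 24 h were the low ones. The heavy chain H2-K1 stood at 559.9, 865, 479 and 603 CPM with IFNγ first, against 494, 526, 135 and 159 CPM with medium first. H2-D1, the other classical heavy chain, stood at 742, 1223, 706 and 892 CPM with IFNγ first, against 666, 756, 148 and 209 CPM with medium first. In both genes every IFNγ then TGFβ library was above its partner of the same duration, by the most at 12 and 24 h.

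The non-classical heavy chains and 2 of the 3 immunoproteasome subunits followed the same course. The other subunit, Psmb10, had 21.0, 23.2, 11.6 and 11.5 CPM with IFNγ first, against 19.5, 17.4, 4.97 and 8.89 CPM with medium first, and was not called at 12 and 24 h (0.73, SE 0.193, adjusted p = 0.0531). H2-Q4 had 80.5, 135, 60.9 and 79.9 CPM in IFNγ then TGFβ libraries, against 59.5, 70.2, 5.94 and 11.5 CPM in medium then TGFβ libraries. H2-T23, which encodes the Qa-1 molecule read by inhibitory NK receptors, had 79.7, 106, 55.7 and 56.6 CPM with IFNγ first, against 81.7, 81.8, 7.68 and 15.2 CPM with medium first. In H2-T23 the pair of 2 h libraries was level and those of 12 and 24 h lay far apart. Psmb8 had 97.7, 140.4, 67.3 and 93.8 CPM with IFNγ first, against 83.8, 82.4, 7.58 and 17.0 CPM with medium first. Psmb9, its partner subunit, had 14.2, 21.4, 15.5 and 17.6 CPM with IFNγ first, against 12.3, 12.9, 0.973 and 2.23 CPM with medium first. Reads of the H2 genes, a family of near-identical members, could be split or dropped by the counting, so that single H2 values are uncertain.

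**Figure D1:**
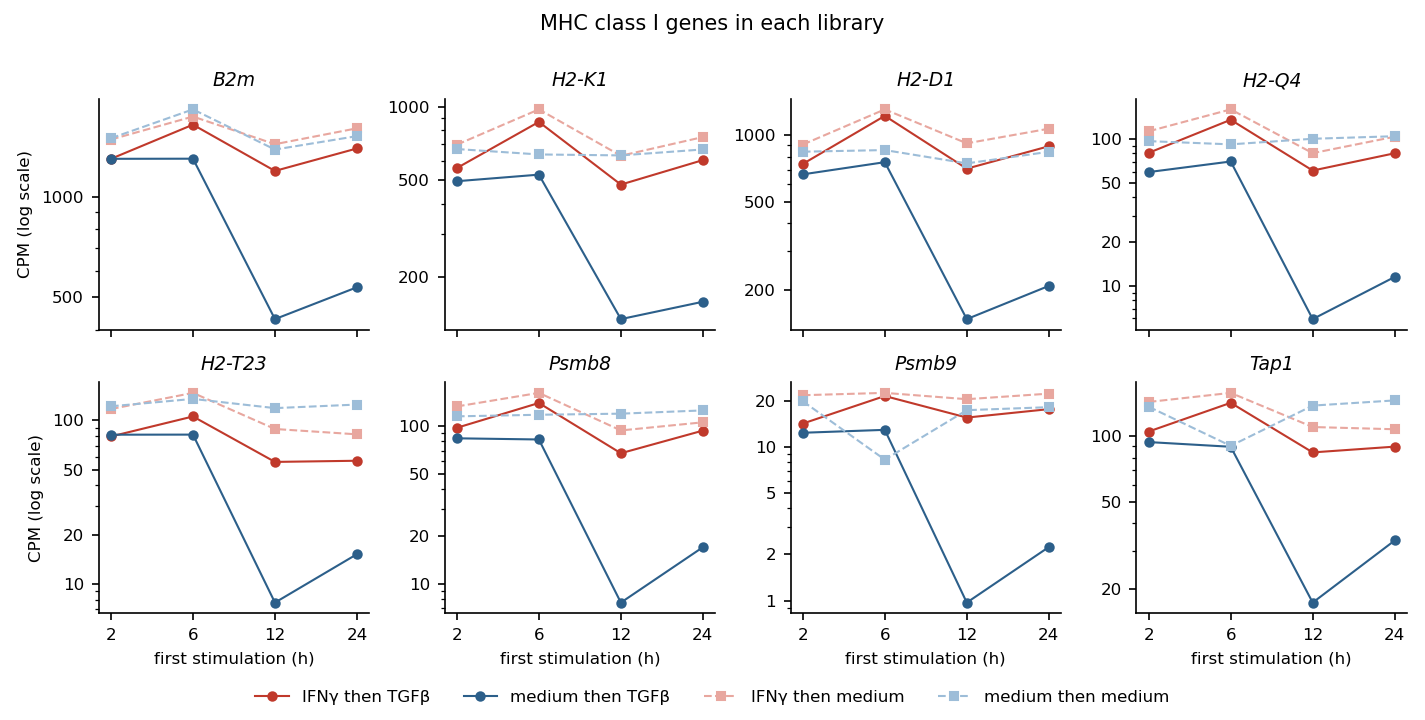
CPM on a log scale in each library, by hours of first stimulation, for 8 genes of the MHC class I list. Each point is 1 library, solid lines join libraries with TGFβ second and dashed lines those with medium second. The medium then TGFβ libraries of 12 and 24 h sit below all others in each panel, as with B2m at 429.9 and 535 CPM.

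The change with duration was tested in 3 ways. As a slope on log2 duration, 0 of 13973 genes were called by edgeR at an adjusted p below 0.05, with 279 (2%) at an unadjusted p below 0.05. As the difference at 12 and 24 h minus that at 2 and 6 h, a contrast chosen after these values were known, 7 of 13973 genes were called (0.0501%), with 644 at an unadjusted p below 0.05. All 7 were on the MHC class I list and had a larger difference at the longer durations. In the immunoproteasome subunits it was larger by 2.87 in Psmb9 (SE 0.445, adjusted p = 0.0182) and by 2.19 in Psmb8 (SE 0.348). In the heavy chains it was larger by 2.28 in H2-Q4 (SE 0.358), 2.12 in H2-T23 (SE 0.342), 1.70 in H2-D1 (SE 0.305) and 1.41 in H2-K1 (SE 0.256, adjusted p = 0.0469). In B2m it was larger by 1.25 (SE 0.206, adjusted p = 0.0189). In fits of the durations apart, 18 of 22 MHC class I genes were called higher after IFNγ at 12 and 24 h and 0 lower, where 2.25% of 14594 genes were called higher and 1.56% lower. At 2 and 6 h, 0 of the 22 were called in either direction, where 0% of 14114 genes were called higher and 0.0425% lower.

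At 12 and 24 h the log2 fold changes in the fit of those libraries alone reached 4.97 in H2-Q7 (SE 0.740, adjusted p = 0.00248), which lay at 1.40 and 3.70 CPM with IFNγ first against 0 and 0.146 CPM with medium first, so that its fitted fold depends on the prior count. Psmb9 was higher by 3.35 (SE 0.215, adjusted p = 3.42e-06), H2-K1 by 1.89 (SE 0.152, adjusted p = 3.23e-05) and B2m by 1.43 (SE 0.141, adjusted p = 0.00017). Tap1 and Tap2, the 2 subunits of the peptide transporter, were higher by 1.78 (SE 0.215, adjusted p = 0.000644) and 1.48 (SE 0.173, adjusted p = 0.000597). Nlrc5, the transactivator of class I genes, had 55.6, 49.2, 51.7 and 44.8 CPM with IFNγ first against 41.9, 42.5, 21.1 and 21.8 CPM with medium first, and was higher by 1.17 (SE 0.118, adjusted p = 0.00017). The 4 members not called were Psmb10, Calr, Pdia3 and Canx, of which the last 3 are general chaperones of the endoplasmic reticulum. This fit rested on 2 libraries a group: without the 24 h IFNγ then TGFβ library 11 of the 22 were called higher and 88 genes in all in place of 555. Without the 12 h medium then TGFβ library these counts were 12 and 121, without the 24 h one 18 and 307, and without the replicate block 17 and 263.

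**Figure D2:**
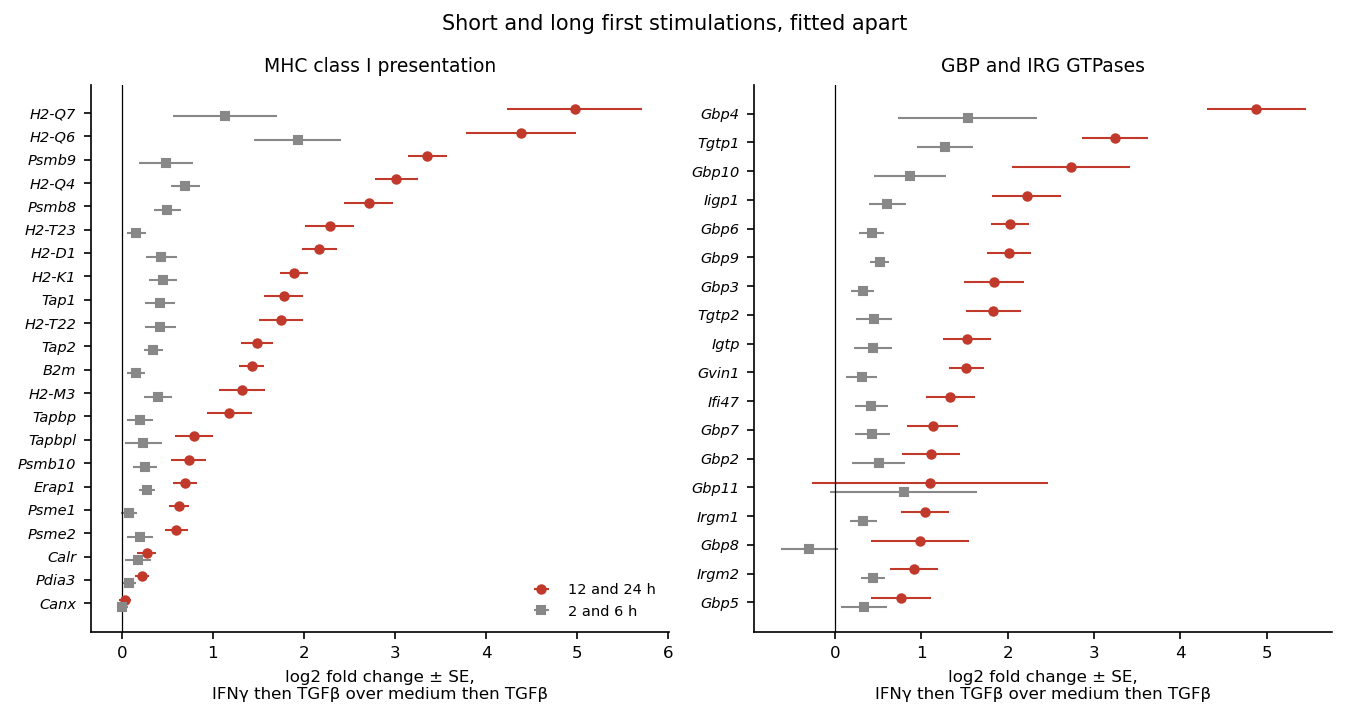
Log2 fold change of IFNγ then TGFβ over medium then TGFβ with its SE, in the fit of the 12 and 24 h libraries (circles) and in that of the 2 and 6 h libraries (squares), for the tested members of 2 lists. Psmb9 lies at 3.35 in the long durations and at 0.48 in the short ones.

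Across all 4 durations the MHC class I genes did not pass the test. Their median log2 fold change was 0.82 over 22 genes, against 0.01 over all 14935 tested, and 0 of 22 were called, where 0.0268% of all genes were called higher. At an unadjusted p below 0.05, 16 of 22 were higher and 0 lower, where 5.7% of all genes were higher and 5.86% lower. Of the list, 15 of 22 were higher at each of the 4 durations, where 11.9% of all genes were. By duration the median difference of the list was 0.11, 0.47, 1.71 and 1.30 at 2, 6, 12 and 24 h. All 22 were above 0 at 6 h, where 7989 of 14935 genes were. At 2 h 15 of 22 were, where 7435 of 14935 genes were.

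With medium as the second stimulus the same IFNγ pulses left B2m level. B2m had 1482, 1737, 1435 and 1601 CPM after IFNγ then medium, against 1495, 1824, 1383 and 1517 CPM after medium then medium. The list's median difference there was -0.01, 0.29, -0.27 and -0.03 at 2, 6, 12 and 24 h. Read along the second stimulus, the median of the list in IFNγ then TGFβ minus IFNγ then medium was -0.33, -0.18, -0.39 and -0.28, and in medium then TGFβ minus medium then medium it was -0.50, -0.41, -2.32 and -2.04. The step down under TGFβ was thus of a similar size in all 4 IFNγ-first pairs, and was deeper at 12 and 24 h than at 2 and 6 h in the medium-first pairs.

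The difference between the pulse's effect under TGFβ and that under medium was tested as an interaction. Over all durations 0 of 14935 genes were called by edgeR and 0 by DESeq2, with 1078 (7.22%) at an unadjusted p below 0.05 in edgeR. Without the 2 h medium then medium library, 20 were called. In the 12 and 24 h libraries, an alternative added after the data were seen, 329 of 14594 genes (2.25%) had a more positive effect under TGFβ and 178 (1.22%) a more negative one. Among MHC class I genes 18 of 22 were called more positive and 0 more negative, with a median of 1.82, and leaving out any 1 of the 8 libraries gave 15 to 18. Among genes known for antiviral defence under type I interferon 27 of 33 were called more positive, with a median of 2.04, but 8 were called without any 1 of the 4 libraries with medium second, 14 without either IFNγ then TGFβ library, 17 without the 12 h medium then TGFβ library and 33 without the 24 h one. The count over all genes, 507, fell to 184 without the 12 h IFNγ then medium library and was 384 at most when 1 library was left out. This contrast and the one above share the 4 libraries with TGFβ second, so that they are not independent of each other.

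No label names a batch. The libraries carry running numbers, and the medium-first ones of 2, 6 and 12 h come after all others, medium-first 24 h ones included. At 2, 6 and 12 h, IFNγ first against medium first hence cannot be told apart from this order. Within medium then TGFβ, counts of the 2 and 6 h libraries differed by a chi-square per degree of freedom of 6.09 and those of the 12 and 24 h libraries by 10.5, while pairs across the 2 sets differed by 27.4 to 39.3. Within IFNγ then TGFβ the 6 pairs ranged from 12.5 to 25.9. The longer wait in medium and any unrecorded difference in handling of the 12 and 24 h medium then TGFβ libraries cannot be told apart.

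Beyond class I, other interferon-induced genes shared the course over time with smaller counts of calls. The guanylate-binding proteins and immunity-related GTPases, which attack vacuoles of intracellular microbes, had a median log2 fold change of 0.92 over 18 genes in all durations, with 0 called. By duration their median difference was 0.08, 0.79, 2.13 and 1.15. At 12 and 24 h, 11 of 18 were called higher and 0 lower, against 2.25% and 1.56% of all genes. Without the 24 h IFNγ then TGFβ library 5 of 18 were called. Iigp1 had 218, 293, 125 and 147 CPM with IFNγ first, against 191, 147, 12.4 and 46.9 CPM with medium first, and its 12 and 24 h log2 fold change was 2.22 (SE 0.401, adjusted p = 0.00809). Gbp3 had 526, 684, 267 and 311 CPM with IFNγ first, against 497, 464, 40.7 and 123 CPM with medium first (log2 fold change 1.84, SE 0.347, adjusted p = 0.00991). Gbp2, with 131, 197, 65.0 and 58.4 CPM against 130.2, 104, 14.9 and 41.8 CPM, was not called (1.11, adjusted p = 0.0885).

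The 33 antiviral genes had a median of 0.50 over all durations with 0 called, and by duration 0.01, 0.37, 1.56 and 0.51. At 12 and 24 h, 9 of 33 were called higher and 0 lower, against 2.25% and 1.56% of all genes. Zbp1, a sensor of Z-form nucleic acid, had 170.4, 232, 72.5 and 95.7 CPM with IFNγ first, against 161, 139, 5.64 and 22.2 CPM with medium first. Bst2, the virion-tethering protein tetherin, had 667, 722, 414 and 590.1 CPM with IFNγ first, against 728, 678, 128 and 285 CPM with medium first. Both were level between the groups at 2 h and apart at 12 and 24 h, with log2 fold changes of 2.61 (SE 0.365, adjusted p = 0.0017) and 1.29 (SE 0.315, adjusted p = 0.0389) there. With medium second the list went the other way at these times, with medians of -0.903 at 12 h and -1.002 at 24 h for IFNγ first minus medium first. The Ifi200 family of DNA sensors had a median of 0.88 over 9 genes, with 2 called higher at 12 and 24 h (Aim2 and Ifi207), and the Schlafen family one of 0.73 over 8 genes, with 2 called higher (Slfn2 and Slfn10-ps), beside the same 2.25% of all genes.

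**Figure D3:**
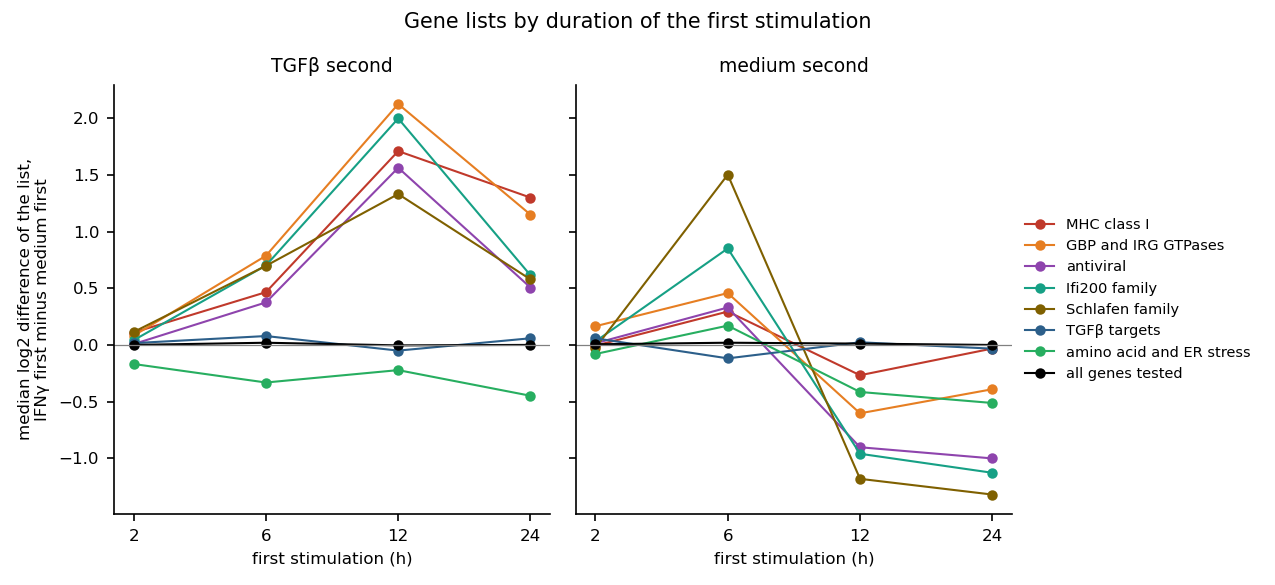
Median log2 difference between IFNγ first and medium first for 7 gene lists and for all genes tested, by hours of first stimulation, with TGFβ second (left) and medium second (right). Each point is the median over the tested genes of a list in 1 pair of libraries. With TGFβ second the interferon lists peak at 12 h, MHC class I at 1.71, and with medium second they lie at or below 0 at 12 and 24 h.

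Of 18 genes of the IFNγ signalling pathway 5 were called higher at 12 and 24 h, where 2.25% of all genes were: Irf7, Stat2, Nlrc5, Irf1 and Stat3. Irf1, a transcription factor of the interferon response, had 42.4, 41.0, 28.7 and 28.9 CPM with IFNγ first, against 35.1, 27.5, 15.5 and 20.4 CPM with medium first, with 0.68 as its log2 fold change (SE 0.125, adjusted p = 0.00903) at 12 and 24 h. The receptor chains and kinases lay near 0 over all durations, Ifngr1 at 0.06 (SE 0.08), Ifngr2 at 0.09 (SE 0.0785), Jak1 at -0.03 (SE 0.0432) and Jak2 at -0.01 (SE 0.0838). Socs1, the feedback inhibitor of the receptor, had 4.74, 5.07, 3.54 and 4.60 CPM with IFNγ first, against 4.57, 3.91, 4.51 and 5.15 CPM with medium first, a log2 fold change of -0.02 with a 95% interval of -0.39 to 0.35.

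Among secreted and surface signals to T cells, 1 of 11 chemokines and 1 of 11 inhibitory ligands were called higher at 12 and 24 h and 0 lower, where 2.25% and 1.56% of all genes were. Cd274, which encodes PD-L1, had 14.6, 17.0, 6.66 and 6.40 CPM with IFNγ first, against 12.3, 9.55, 2.31 and 6.26 CPM with medium first. It was level at 24 h, and its log2 fold change of 0.57 (SE 0.46, adjusted p = 0.683) did not pass the test in all durations or in the 12 and 24 h libraries (0.59, adjusted p = 0.398). The T cell attractant Cxcl10 had 93.0, 124, 27.6 and 21.3 CPM against 112, 65.9, 12.6 and 35.3 CPM, with no common direction (log2 fold change 0.25, SE 0.649). Cxcl9, of the same chemokine group, stayed at 0.418, 1.22, 0.468 and 0.0451 CPM with IFNγ first, against 0.218, 0.168, 0.0512 and 0 CPM with medium first. The chemokine called was Ccl5, with 27.6, 72.1, 18.0 and 24.1 CPM against 30.0, 34.7, 7.68 and 9.22 CPM (1.32, SE 0.193, adjusted p = 0.0023). The inhibitory ligand called was the galectin Lgals3, with 14.5, 32.6, 23.8 and 30.0 CPM against 14.7, 17.8, 14.6 and 12.4 CPM (0.99, SE 0.143, adjusted p = 0.00196). In the interaction at 12 and 24 h, where 2.25% of all genes were called more positive, 2 of 11 were in each list. Among them were Cd274 at 1.94 (adjusted p = 0.0203) and Cxcl10 at 2.48 (adjusted p = 0.0146). With TGFβ second the 12 and 24 h log2 fold change of Cxcl10 was 0.01 (SE 0.369). With medium second, Cxcl10 had 39.4 and 30.2 CPM at 12 and 24 h with IFNγ first, against 186 and 198 CPM with medium first. Cd274 had 9.78 and 9.62 CPM there, against 24.5 and 24.5 CPM.

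Of 23 cell death genes 5 were called higher at 12 and 24 h and 0 lower, against 2.25% and 1.56% of all genes. They were Casp1, Casp4, Casp12, Xaf1 and the pore-forming gasdermin Gsdmd. Casp1, the inflammasome caspase, had 4.46, 8.66, 6.45 and 9.24 CPM with IFNγ first, against 4.13, 5.70, 1.69 and 2.72 CPM with medium first (1.83, SE 0.255, adjusted p = 0.00165). Gsdmd had 8.08, 10.8, 6.19 and 6.90 CPM against 7.56, 7.82, 1.84 and 2.48 CPM (1.60, SE 0.191, adjusted p = 0.000635).

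Genes that IFNγ itself raises stayed on the positive side as a class. In medium then IFNγ against medium then medium, which share no library with the comparison, 43.8% of 14935 genes were called, 22.7% higher and 21.2% lower. Of 215 genes raised over 4-fold there, 187 (87.0%) had a positive log2 fold change of IFNγ then TGFβ over medium then TGFβ, against 52.1% of all genes. Their median was 0.72, and by duration 0.06, 0.81, 0.59 and 0.50. Of the 215, 71 were higher at all 4 durations, where 11.9% of all genes were, and 1 passed the test. The 673 genes that IFNγ lowered over 2-fold had a median of -0.05, and 50 of them were higher and 104 lower at all 4 durations, where 11.9% and 11.2% of all genes were.

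Over all 4 durations 14 of 14935 genes were called (0.0937%), 4 higher (0.0268%) and 10 lower (0.067%), and 1727 (11.6%) had an unadjusted p below 0.05. Notch1 (chromosome 2, 26457903 to 26516663) had the lowest adjusted p. It had 22.0, 29.1, 28.9 and 33.7 CPM after 2, 6, 12 and 24 h of IFNγ then TGFβ, against 14.9, 16.8, 19.5 and 20.7 CPM after medium then TGFβ. The 2 groups did not overlap, which 1.92% of all genes did in this direction, and the gap was present at every duration. Notch1 averaged 28.4 ± 4.82 CPM with IFNγ first and 18.0 ± 2.61 CPM with medium first (SD, n = 4 each), with 0.66 as its log2 fold change (SE 0.097, adjusted p = 0.00973). IFNγ given second also raised it, by 1.26. With medium second Notch1 had 23.7, 30.7, 31.9 and 33.2 CPM after IFNγ, against 22.0, 23.6, 26.8 and 23.1 CPM after medium. It was higher there at each duration without being called over all durations (0.32, adjusted p = 0.107). The Notch ligand Dll1, named after its values were seen, had 6.23, 8.45, 6.29 and 7.80 CPM with IFNγ first, against 4.68, 3.13, 3.48 and 3.59 CPM with medium first, without passing the test over all durations (0.97, SE 0.256, adjusted p = 0.108). It was called at 12 and 24 h (1.00, SE 0.255, adjusted p = 0.0456). The Notch targets Hes1 at 0.08 (SE 0.0743) and Nrarp at -0.33 (SE 0.192) and the receptor Notch2 at 0.14 (SE 0.0788) were not called over all durations. Nrarp was called lower at 12 and 24 h, opposite to Notch1, at -0.52 (SE 0.110, adjusted p = 0.0183), and was more negative in the interaction there by -0.87 (adjusted p = 0.00798).

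Arhgap31, a GTPase-activating protein for Cdc42 and Rac1, had 31.3, 34.5, 33.0 and 31.9 CPM with IFNγ first, against 24.9, 28.5, 25.5 and 25.3 CPM with medium first (0.33, SE 0.0516, adjusted p = 0.0142). The zinc finger gene Zfp607a had 2.51, 1.95, 2.18 and 1.89 CPM against 1.09, 1.01, 1.18 and 1.21 CPM (0.92, SE 0.165, adjusted p = 0.0404). Neither overlapped between the groups. The fourth gene higher, Gm50397, had 0.186, 0.264, 0.312 and 0.856 CPM against 0.109, 0, 0 and 0.0486 CPM, too few reads for a reliable fold.

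Of the 10 lower genes, Stc2, which encodes the secreted glycoprotein stanniocalcin 2, had 17.9, 11.7, 21.0 and 13.9 CPM with IFNγ first, against 22.8, 23.8, 27.5 and 24.2 CPM with medium first (-0.62, SE 0.119, adjusted p = 0.0474). Anxa5, the phosphatidylserine-binding annexin A5, had 1206, 896, 1122 and 1135 CPM against 1344, 1130, 1509 and 1516 CPM (-0.33, SE 0.0632, adjusted p = 0.0474). Anxa5 was lower at each duration although its groups overlapped. Grk2, a kinase that turns off G protein-coupled receptors, had 84.5, 83.6, 82.2 and 82.6 CPM against 96.7, 102, 96.6 and 96.0 CPM (-0.23, SE 0.0418, adjusted p = 0.0404). Gnb1, a G protein beta subunit, had 509, 549, 544 and 556 CPM against 684, 676, 678 and 643 CPM (-0.31, SE 0.0606, adjusted p = 0.0474). Gnas, the stimulatory G protein alpha subunit, had 1042, 1054, 1049 and 1092 CPM against 1275, 1294, 1291 and 1172 CPM (-0.25, SE 0.0476, adjusted p = 0.0474). In these 3 genes the groups stayed apart in all libraries, as 2.6% of all genes did in this direction.

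The RNA-binding protein gene Ybx3 fell by 0.23 (SE 0.0469, adjusted p = 0.0496) and Ndufb8, of respiratory complex I, fell by 0.31 (SE 0.0608, adjusted p = 0.0474). The processed pseudogenes Gm6758 and Gm7065 fell by 0.73 (SE 0.143) and 0.90 (SE 0.177), and Gm6877, below 1 CPM on average in both groups, fell by 1.44 (SE 0.278). Reads of pseudogenes can belong to their parent genes, so that these values are uncertain. For Gm7065 the 24 h medium then TGFβ library lay at 3.74 CPM, against 7.94, 7.65 and 7.58 CPM at the other durations, and the IFNγ then TGFβ libraries at 3.76, 3.65, 3.85 and 2.93 CPM. Grk2 was also lower at each duration with medium second, with 80.0, 76.7, 82.6 and 78.8 CPM after IFNγ then medium, against 100.4, 93.4, 98.0 and 88.0 CPM after medium then medium. Gnb1 and Gnas were lower there at 2, 6 and 12 h and near level at 24 h (-0.0036 and -0.07). The running numbers divide the medium-first libraries in the same way, and a link was not tested. Over all durations Grk2 (-0.26, adjusted p = 0.0145), Gnb1 (-0.28, adjusted p = 0.0299), Gnas (-0.23, adjusted p = 0.0272) and Gm7065 (-0.96, adjusted p = 0.0172) were called with medium second. The other lower genes were not.

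The count of 14 rested on single libraries. Leaving out 1 of the 8 gave 0 to 45 calls, with 0 without the 6 h IFNγ then TGFβ library or without the 2 h or 12 h medium then TGFβ library, and 45 without the 2 h IFNγ then TGFβ library. The other IFNγ then TGFβ libraries gave 1 (12 h left out) and 5 (24 h left out), and the other medium then TGFβ libraries 2 (6 h left out) and 3 (24 h left out). Without the 6 h medium then medium library 121 were called, without duration as a replicate block 1, and DESeq2 called 160. Notch1 was not called in the fit without the block (adjusted p = 0.0953), but its log2 fold change was 0.66 there.

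**Figure D4:**
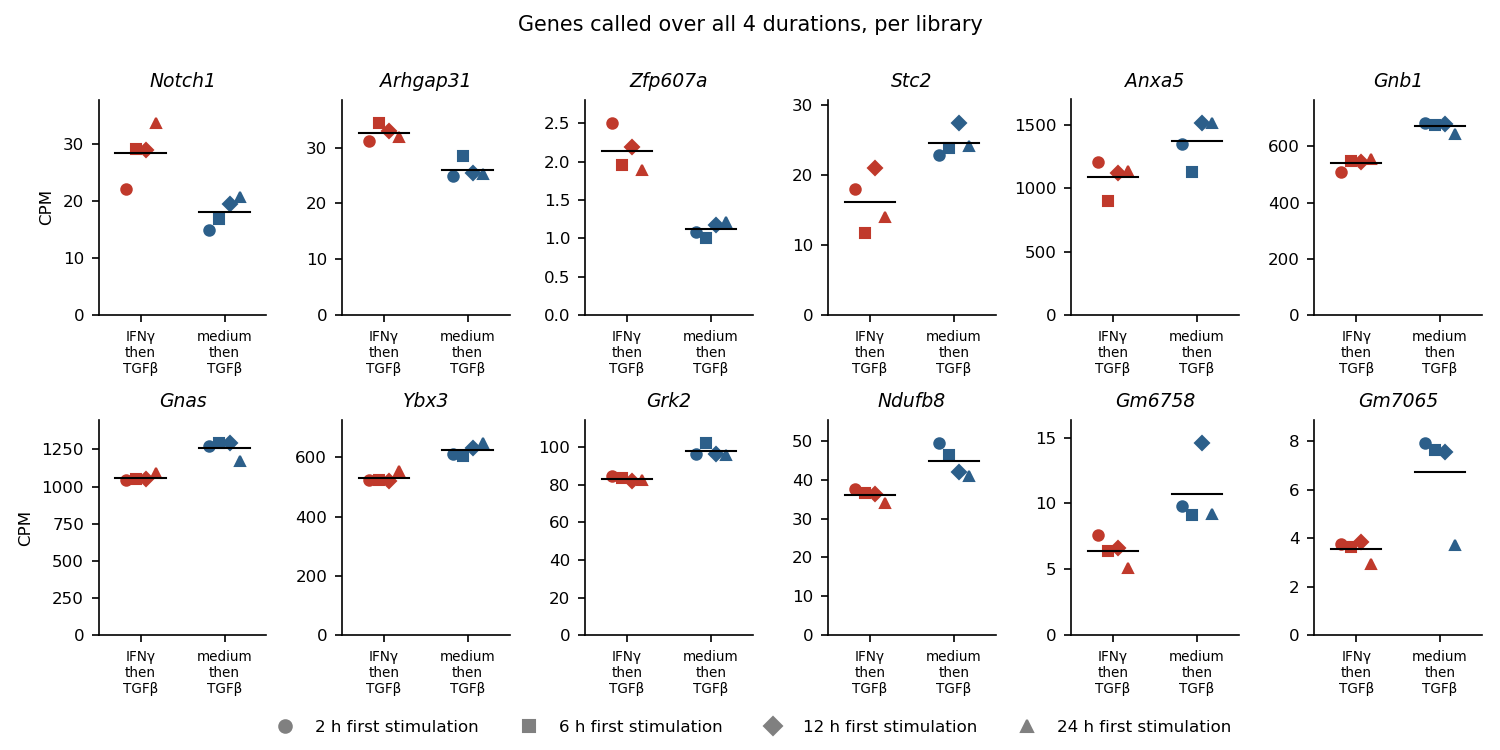
CPM in each library for the 12 genes called over all durations with a mean of at least 1 CPM in a group, with IFNγ then TGFβ left and medium then TGFβ right. Symbols give the duration of the first stimulation, and bars the mean of 4 libraries. Notch1, Arhgap31 and Zfp607a are higher with IFNγ first, Notch1 at 28.4 against 18.0 CPM on average, and the other 9 lower.

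Over all durations 0 of 23 TGFβ signalling genes and 0 of 23 TGFβ target genes were called, with medians of 0.04 and 0.05, where 0.0937% of all genes were called, so that a count of 0 is near that share. Smad7, the inhibitory SMAD induced by TGFβ, had 54.0, 50.1, 61.0 and 64.7 CPM with IFNγ first, against 55.8, 47.2, 71.5 and 66.6 CPM with medium first. Its log2 fold change was -0.06 with a 95% interval of -0.29 to 0.17, and for Skil, a SMAD corepressor, it was 0.09 (-0.02 to 0.21). In the interaction at 12 and 24 h, 2 of 23 TGFβ signalling genes were called more positive, beside 2.25% of all genes, Skil among them at 0.34 (adjusted p = 0.0406). With TGFβ second the 12 and 24 h log2 fold change of Skil was 0.06 (SE 0.0593, adjusted p = 0.701). With medium second its difference was -0.27 at 12 h and -0.28 at 24 h. Mmp12, a macrophage elastase, had 17.5, 21.6, 21.8 and 41.4 CPM with IFNγ first, against 20.4, 19.8, 19.9 and 23.2 CPM with medium first (0.25, SE 0.252). Tgfbi, a secreted matrix protein, had 38.5, 79.1, 54.0 and 54.4 CPM against 32.1, 43.4, 37.1 and 30.8 CPM, higher at each duration without passing the test over all of them (0.64, SE 0.177, adjusted p = 0.139). The integrin chain Itgb7 had 8.36, 12.1, 7.54 and 15.3 CPM against 6.47, 8.32, 1.90 and 2.77 CPM (1.20, SE 0.330, adjusted p = 0.132). At 12 and 24 h Itgb7 was called higher, at 2.29 (SE 0.360, adjusted p = 0.00393). Nras, the mutated oncogene of the line, had 106, 99.6, 103 and 108 CPM against 105, 98.6, 113 and 112 CPM (-0.04, SE 0.0544). The mitophagy gene Bnip3 had 64.2, 78.6, 114 and 115 CPM against 49.0, 52.9, 99.5 and 84.2 CPM (0.40, SE 0.149, adjusted p = 0.295). With medium second, IFNγ first against medium first called 118 of 14935 genes over all durations (0.79%). Among them were Itgb7 at 1.29 (adjusted p = 0.0389), Tgfbi at 0.94 (adjusted p = 0.022) and Bnip3 at 0.84 (adjusted p = 0.0172). Smad7, Skil, Mmp12 and Nras were not called there.

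Matrix and adhesion genes moved in both directions at 12 and 24 h. Of 38 extracellular matrix genes 4 were called higher and 6 lower there, of 22 TGFβ targets 1 higher (Tgfbi) and 3 lower (Fn1, Ccn1 and Fbln2), and of 20 cytoskeleton and mesenchymal genes 0 higher and 3 lower (Flna, Tpm4 and Itgb1), against 2.25% and 1.56% of all genes. The integrin beta-1 chain Itgb1 had 1724, 1607, 1614 and 1682 CPM with IFNγ first, against 1798, 1616, 2165 and 2340 CPM with medium first (-0.45, SE 0.0520, adjusted p = 0.000597). Tenascin C, Tnc, had 1802, 1443, 1688 and 1308 CPM against 1683, 1600, 2310 and 2099 CPM (-0.56, SE 0.0909, adjusted p = 0.00478). In both genes the medium then TGFβ libraries of 12 and 24 h were the high ones. The stromelysin Mmp3 had 1091, 809, 725 and 704 CPM against 1202, 1024, 1126 and 1106 CPM (-0.64, SE 0.0681, adjusted p = 0.000271). The proteoglycan decorin, Dcn, went the other way with 118, 139, 100.3 and 155 CPM against 123, 145, 56.8 and 61.6 CPM (1.11, SE 0.190, adjusted p = 0.0063). Nephronectin, Npnt, an integrin ligand outside the lists and named after its values were seen, had 17.7, 7.92, 13.7 and 11.0 CPM against 21.8, 20.0, 43.4 and 33.6 CPM, the lowest log2 fold change of the called genes with a mean of at least 1 CPM (-1.64, SE 0.104, adjusted p = 3.42e-06).

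The list of amino acid supply and endoplasmic reticulum stress genes lay below 0. Its median over all durations was -0.31 for 20 genes, with 0 called and 10 of 20 lower at an unadjusted p below 0.05, where 5.86% of all genes were, and 12 of 20 lower at all 4 durations, where 11.2% of all genes were. The lower members had various roles, among them amino acid uptake and synthesis, transcription (Atf4 and Atf5), glutathione breakdown (Chac1, at -0.63, adjusted p = 0.382) and protein quality control in the endoplasmic reticulum (Herpud1, at -0.42, adjusted p = 0.269). Slc7a5, the large neutral amino acid transporter, had 66.4, 51.2, 63.1 and 38.9 CPM with IFNγ first, against 96.2, 86.9, 103 and 79.2 CPM with medium first (-0.74, SE 0.161, adjusted p = 0.0578). Asns, asparagine synthetase, had 177, 145, 160.5 and 89.4 CPM against 213, 212, 215 and 158 CPM (-0.49, SE 0.151, adjusted p = 0.178). Psat1, of serine synthesis, had 196, 154, 191 and 122 CPM against 234, 208, 257 and 225 CPM (-0.48, SE 0.117, adjusted p = 0.0762). Atf5, a factor downstream of ATF4, had 71.2, 51.1, 56.1 and 53.3 CPM against 87.4, 72.5, 88.5 and 67.7 CPM (-0.45, SE 0.109, adjusted p = 0.0784). The chaperones Hspa5 at 0.12 (SE 0.146) and Hsp90b1 at 0.10 (SE 0.0851) did not share the direction. At 12 and 24 h, 6 of 20 were called lower (Phgdh, Atf5, Shmt2, Slc7a5, Atf4 and Psat1) and 1 higher, the stress factor Ddit3, against 1.56% and 2.25% of all genes. With medium second the list's median difference was -0.08, 0.17, -0.42 and -0.51 by duration. Over all durations there, Atf5 was called lower at -0.88 (SE 0.109, adjusted p = 0.00062). Slc7a5 (-0.33), Asns (-0.38), Psat1 (-0.15) and Atf4 (-0.43, adjusted p = 0.0596) were lower without being called. With TGFβ second Atf4 lay at -0.42 over all durations (adjusted p = 0.108).

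**Figure D5:**
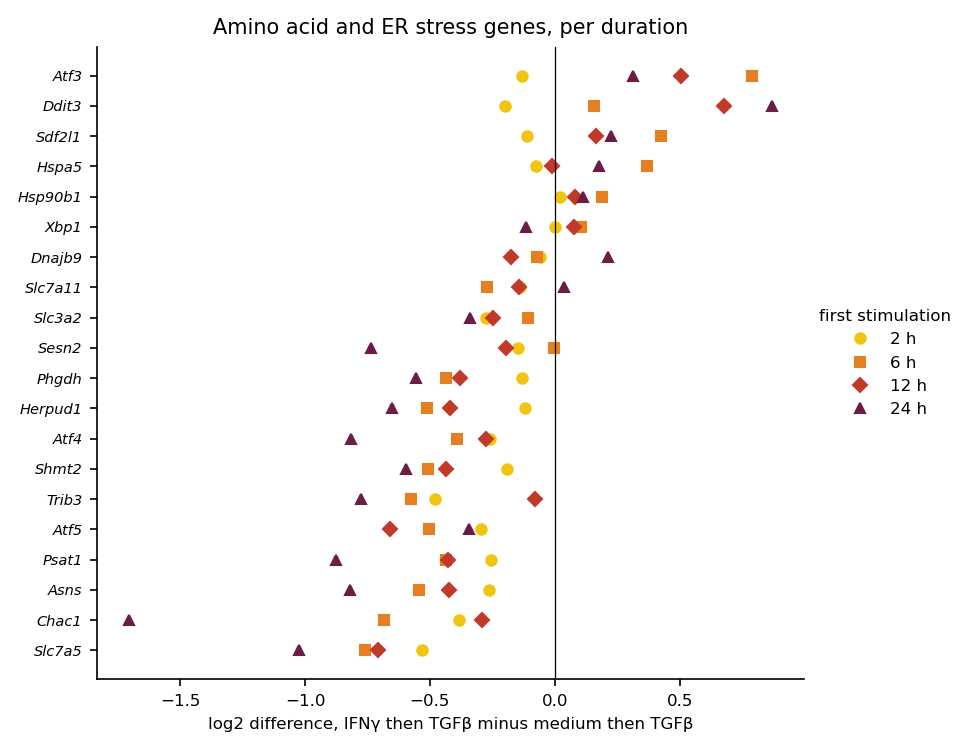
Log2 difference between IFNγ then TGFβ and medium then TGFβ at each duration for the 20 tested genes of amino acid supply and endoplasmic reticulum stress, ordered by their log2 fold change over all durations. Each symbol is 1 pair of libraries, and 12 of the 20 genes lie below 0 at all 4 durations, Slc7a5 the farthest in the fit.

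Of the other lists, cell cycle genes of G1/S and G2/M had medians of 0.04 and 0.02 with 0 of 20 called in each, p53 targets 0.01, MAPK output genes 0.00, glycolysis and hypoxia genes 0.08 and lipid synthesis genes -0.02, with 0 called over all durations in any of these. Of the glycolysis and hypoxia genes, 13 of 30 were higher at all 4 durations, where 11.9% of all genes were. By duration their median difference was 0.06, 0.17, 0.03 and 0.07 with TGFβ second. It was larger with medium second, at 0.09, 0.49, 0.38 and 0.25. In the 12 and 24 h libraries 1 of 20 G1/S genes and 1 of 18 MAPK output genes were called lower, beside 1.56% of all genes. Of 20 p53 targets 1 was called higher, beside 2.25% of all genes. Of 4 tested genes of a melanocyte list 2 were called higher and 0 lower there. Of 12 genes listed as references 2 were called lower and 0 higher there. Over all durations the median of these 12 was -0.02, and 5 were lower at all 4 durations, where 11.2% of all genes were. The mitochondrially encoded oxidative phosphorylation genes had a median of 0.18 over 11 genes, from 0.08 to 0.90, with 0 called and 2 of 11 higher at all 4 durations. By duration their median difference was 0.54, 0.11, -0.08 and 0.30. Fibroblast and endothelial markers summed to 527 to 689 CPM in IFNγ then TGFβ libraries and to 505 to 635 CPM in medium then TGFβ libraries, with 6 of 12 over 1 CPM. Of the 6 tested, 2 were called higher at 12 and 24 h and 0 lower, beside 2.25% and 1.56% of all genes: Pdgfra, a growth factor receptor of mesenchymal cells, at 0.74 (SE 0.141, adjusted p = 0.0101) and Dcn, which is also one of the matrix genes above. Their part in the matrix results was not tested. Pdgfra was also called with medium second, at 0.60 over all durations (SE 0.133, adjusted p = 0.0382).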

How the data were processed

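The deposited table holds whole-number read counts per gene for 29 libraries, made by the authors with HISAT on GRCm38, per the submitters' processing notes. For the counting tool, annotation and strand setting the sources used here name nothing, so overlapping genes and near-identical copies may share reads. Groups came from the labels. edgeR 4.0.16 in R 4.3.3 fitted all 29 libraries with TMM factors, a minimum count of 10 by group, a term per group and duration as a replicate block, with 18 residual degrees of freedom. Quasi-likelihood p-values were adjusted by Benjamini-Hochberg over all tested genes, and calls are at an adjusted p below 0.05. Levels are CPM, and log2 differences of single pairs use a prior count of 2. The standard error is the log2 fold change over the root of F.

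With TGFβ second, deviations from group means at the same duration correlated by 0.138, 0.325, 0.333 and 0.308 at 2, 6, 12 and 24 h. The highest values with another duration were 0.106, 0.289, 0.0837 and 0.144. Pairing by duration was thus weak, and at 2 and 6 h the matched value was little above another. With medium second the same correlations were -0.0409, 0.0536, 0.0177 and -0.0313, so that duration did not pair those libraries, although the block covers all. The longer and the shorter durations were also fitted apart. DESeq2 1.42.0, RLE scaling (limma 3.58.1 loaded with edgeR), no filter, no block and leaving out libraries were alternatives. Named genes were the 10 highest and 10 lowest called genes with the same sign at all 4 durations and a mean of at least 1 CPM in a group, the 5 highest and 5 lowest called for the change with duration and for the interaction, up to 4 called members of each list, and a set of interferon, TGFβ and stress genes always given, some of which are not reported here. Others are members of lists or were chosen after their values were seen. The members and lists were chosen with earlier results of these data known. The tests were also run on simulated data.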

Additional observations from a re-analysis of the deposited data

Results flagged for a closer look

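In 9 of 108 groups of 4 values, 1 library lay far from the other 3 by Dixon's criterion. Chance flags about 1 in 20 groups. In IFNγ then TGFβ these were mt-Nd3 at 12.9 CPM at 24 h (others 6.55 to 7.49), Hes1 at 63.1 CPM at 6 h (others 71.7 to 73.3) and Ybx3 at 553 CPM at 24 h (others 519 to 525). In medium then TGFβ the 24 h library was low for Pdgfra at 7.82 CPM (others 8.91 to 9.08), Asns at 158 CPM (others 212 to 215), Gnas at 1172 CPM (others 1275 to 1294) and Gm7065 at 3.74 CPM (others 7.58 to 7.94). In the same group Grk2 was high at 6 h with 102 CPM (others 96.0 to 96.7) and Gm6758 at 12 h with 14.6 CPM (others 9.16 to 9.79).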

How the results depend on the processing

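The 14 genes called over all durations became 93 with no filter on low counts, 1 with no replicate block, 160 with DESeq2, 73 in a fit of the 8 libraries alone with the replicate block and 0 without it, 6 in the 2 and 6 h libraries and 555 in those of 12 and 24 h. Leaving out libraries gave 0 to 121. The change with duration, 0 genes, became 1 with no filter and 7 as 12 and 24 h against 2 and 6 h, and 0 to 2 when libraries were left out. The interaction, 0 genes, became 507 in the 12 and 24 h libraries and 0 to 20 when libraries were left out. The 555 genes of the 12 and 24 h libraries became 1064 with no filter, 263 with no replicate block and 88 to 384 when 1 library was left out, and the 507 of the interaction became 1020, 261 and 184 to 384. With 1 library left out, MHC class I genes called higher numbered 11 to 18 and GTPases 5 to 16, and in the interaction MHC class I genes 15 to 18 and antiviral genes 8 to 33. These fits of the interaction and the contrast of longer with shorter durations were chosen after seeing the data. The cause of these changes was not tested. Of the 14 called genes' values under the alternatives, 94 of 292 kept the call, 198 lost it and 0 changed direction. Among genes not called, the 2 and 6 h libraries turned Mmp12 to -0.074, Socs1 to 0.20, Nras to 0.0047 and Smad7 to 0.0071, and those of 12 and 24 h turned Notch2 to -0.0093. Leaving out libraries took the log2 fold changes of genes not called across 0, with ranges of -0.15 to 0.080 for Socs1, -0.17 to 0.51 for Cxcl10, -0.0041 to 0.40 for Mmp12 and -0.11 to 0.0025 for Smad7.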

Other observations

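Among the 328 genes called higher in the 12 and 24 h libraries, 132 (40.2%) were raised and 67 (20.4%) lowered by IFNγ given second, and among the 227 called lower, 57 (25.1%) were raised and 84 (37.0%) lowered, where 23.1% and 21.4% of all 14594 genes were. Of the 328, 48 were on the interferon lists, against 0 of the 227 and 119 of all 14594. Ube2m, a NEDD8-conjugating enzyme chosen after its values were seen, had 127, 142, 131 and 146 CPM after IFNγ then TGFβ, against 234, 279, 232 and 161 CPM after medium then TGFβ, and was not called over all durations (-0.71, adjusted p = 0.0578). With medium second it had 121, 128, 135 and 147 CPM after IFNγ, against 265, 271, 265 and 144 CPM after medium. In both pairs the gap was wide at 2, 6 and 12 h and small at 24 h, as the running numbers divide the medium-first libraries. A link was not tested.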
